A study of Mus musculus with 4 samples.

Results

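Oxidative phosphorylation is carried out by 5 protein complexes of the inner mitochondrial membrane, and most of their subunits are encoded in the nucleus. The genes described here were the nuclear subunit genes found by symbol: the Nduf genes of series a, b, c, s and v, Sdha to Sdhd, and every symbol starting with Uqcr, Atp5 or Cox4 to Cox8, with pseudogenes left out. The rule found 84 of the 32285 genes in the deposited annotation. Complex I held 37 of them, complex II 4, complex III 8, complex IV 18 and complex V 17. Cox7a2l and Ndufa4l2 match the symbols but were not held to be structural subunits, and Ndufa4 was counted with complex I by its symbol although it is also described as a complex IV subunit. The values come from 4 single-cell RNA-seq libraries of 20-week-old C57BL/6J male mice, 1 each from fracture callus and trabecular bone of placebo-treated animals (control group) and of animals given the glucocorticoid (GC) prednisolone at 6.25 mg/kg/d, collected at week 2. Per the labels the drug was given by slow-release pellet, and the study's methods describe daily injection for the fracture model. The marrow was flushed from the bone before enzyme digestion of the crushed fragments, and the number of mice in a library was not given in the sources used here. With 1 library per group no difference could be tested, so every interval below is a 95% interval for counting error only, and differences between animals or between preparations of a tissue cannot be told apart from differences between groups.

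Complexes I to IV pass electrons from NADH or succinate to oxygen, and complexes I, III and IV move protons out of the matrix. Complex V, the ATP synthase, lets the protons return and makes ATP. Complex I takes electrons from NADH, complex II is also the succinate dehydrogenase of the citric acid cycle, complex III passes electrons to cytochrome c and complex IV passes them to oxygen. A few subunits of complexes I, III, IV and V are encoded by mitochondrial DNA, so the nuclear genes have to be matched by mitochondrial ones. Osteoclasts, the large multinucleate cells that resorb bone, are known for many mitochondria, mature neutrophils for few, and chondrocytes live in poorly vascularised cartilage and rely largely on glycolysis.

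The libraries held between 41239842 and 95852254 UMIs (unique molecular identifiers, each standing for 1 captured RNA molecule), and 3803 to 6890 cells were kept in each, with a median of 3470 to 6346 UMIs per cell. Between 6 and 10 cell barcodes were shared by any pair of libraries. Cells were clustered within each tissue with the 84 genes left out, so that their levels did not define the clusters, and a cluster was named, and is called by that name with the ending -like understood throughout, from markers chosen for the cell type. Classes of at least 30 cells in a library were used. No osteoclast, osteoblast or chondrocyte class reached that size in trabecular bone, where blood cell lineages made up nearly all classes. The unnamed cells numbered 314 and 1462 in the control and GC callus, and 50 and 83 in trabecular bone. The largest unnamed callus cluster, led by the collagen genes Col1a1 and Col1a2, had 98 control and 809 GC cells. Of the 84 genes, 83 and 82 had a UMI in the control and GC callus, and 82 and 83 in control and GC trabecular bone. A level is given on the usual CPM scale, on which the UMIs of a gene are set against all UMIs of the class. UMIs do not grow with transcript length, but capture differs between genes, so that levels were compared across classes and libraries and not between genes. A level given for a whole library pools its classes, whose mix differed between libraries. The part of that mix in such levels was not tested.

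Osteoclasts gave by far the largest part of their RNA to these genes. In the control callus 4.11% of osteoclast UMIs came from the 84 genes (4.09 to 4.14, 106 cells), and in the GC callus 4.22% did (4.19 to 4.25, 119 cells). Over all kept cells the share was 1.43% and 1.47% in the callus libraries and 1.59% and 1.58% in the trabecular ones. The share in single osteoclasts had quartiles of 3.46% and 4.73% in the control and of 3.13% and 4.8% in the GC callus, above the class value of every other callus class. Of the 84 genes, 75 in the control callus and 76 in the GC callus had their highest level among all callus classes in osteoclasts. The share of all genes that were highest in osteoclasts was not counted. Every complex took part: complexes I to V supplied 1.20%, 0.103%, 0.516%, 0.98% and 1.32% of osteoclast UMIs in the control callus, and 1.11%, 0.107%, 0.614%, 1.03% and 1.35% in the GC callus. The 13 mitochondrially encoded subunit genes supplied another 4.16% and 5.15% of osteoclast UMIs. These cells also had among the most UMIs of the callus, with medians of 20390.5 and 16388 per cell. Chondrocytes, which were deeper still, had a share of 1.35% and 1.46%.

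**Figure D1:**
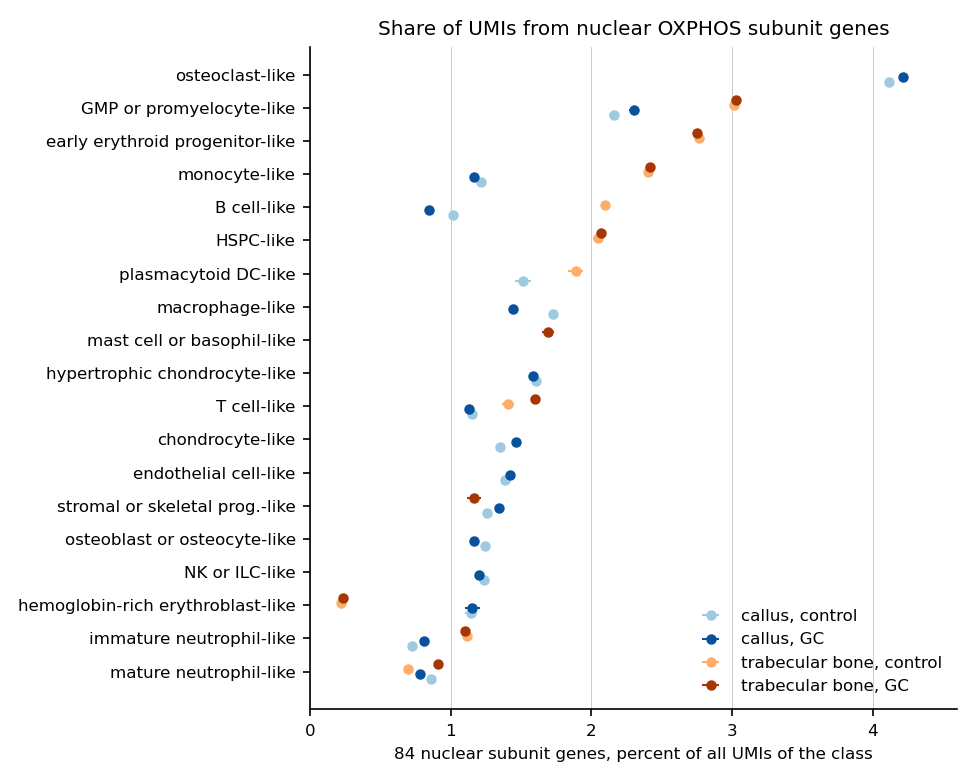
Share of all UMIs of a cell class that came from the 84 nuclear subunit genes (x axis, percent) for each class of at least 30 cells (y axis), with 1 point per library and bars for the 95% counting interval. The 2 callus osteoclast points lie at 4.11% and 4.22%, while the trabecular mature neutrophils lie at 0.694% and 0.907%.

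In trabecular bone the progenitors of the blood lineages came first. The granulocyte monocyte progenitors or promyelocytes (GMP) gave 3.01% (3.0 to 3.03, 164 cells) and 3.03% (3.01 to 3.04, 216 cells) of their UMIs to the 84 genes in control and GC. The early erythroid progenitors followed with 2.76% (2.74 to 2.79, 125 cells) and 2.75% (2.72 to 2.78, 96 cells), and the monocytes with 2.40% and 2.41%. Hematopoietic stem or progenitor cells had 2.04% and 2.07%. In the control library 40 of the 84 genes were highest in GMP and 28 in early erythroid progenitors, and in the GC library 39 and 28 were. Here too the share over all genes was not counted.

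The share was lower along the neutrophil series. From GMP it went to 1.11% and 1.10% in immature neutrophils and to 0.694% (0.689 to 0.70) and 0.907% (0.901 to 0.914) in mature neutrophils of trabecular bone. In callus the GMP had 2.16% and 2.30%, the immature neutrophils 0.722% and 0.809%, and the mature neutrophils 0.861% and 0.784%, so that the immature and mature classes stood in the opposite order in the control callus. The callus immature class scored higher for mature (7.19) than for immature neutrophil markers (6.20). It had S100a8, S100a9 and Retnlg among its leading genes, so these classes were not cleanly separated in callus. Erythroblasts rich in hemoglobin gave 0.215% and 0.232% in trabecular bone, but hemoglobin took 80.8% and 85.1% of their UMIs. Leaving out the hemoglobin, immunoglobulin, mitochondrial and ribosomal protein UMIs, their share was 1.20% and 1.74%. Most skeletal classes lay close together: hypertrophic chondrocytes had 1.61% and 1.59%, stromal cells or skeletal progenitors 1.26% and 1.34%, osteoblasts or osteocytes 1.24% and 1.16%, and endothelial cells 1.39% and 1.42% in control and GC callus. The RNA in droplets without a cell, which leaks into every class, held 1.31% in the control callus and 1.46% and 1.53% in control and GC trabecular bone, values close to those of the skeletal classes.

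A subunit of each complex was read, and all 5 were higher in callus osteoclasts than in chondrocytes. In the control callus they were also higher in chondrocytes than in mature neutrophils. Ndufv1, the subunit of complex I that binds NADH, was at 114 CPM in control and 91.1 CPM in GC callus osteoclasts, against 21.5 and 15.4 CPM in chondrocytes. Sdha, the succinate-oxidising subunit of complex II, was at 332 and 365 CPM in osteoclasts and at 45.5 and 41.2 CPM in chondrocytes. Uqcrfs1, the Rieske iron-sulphur protein of complex III, was at 319 and 318 CPM in osteoclasts and at 53.2 and 60.1 CPM in chondrocytes. All 3 thus stood far above the chondrocyte level in the osteoclasts of both libraries. Cox4i1, the main form of a regulatory subunit of complex IV, was at 1408 and 887 CPM in osteoclasts and at 392 and 310 CPM in chondrocytes. Atp5b, the catalytic beta subunit of the ATP synthase, was at 1034 and 1239 CPM in osteoclasts and at 212 and 203 CPM in chondrocytes. Mature neutrophils of the control callus had 7.5 CPM of Ndufv1, 28.3 CPM of Sdha, 38.7 CPM of Uqcrfs1, 351 CPM of Cox4i1 and 63.7 CPM of Atp5b.

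In trabecular bone the 2 leading classes differed from each other by gene. Ndufv1 was at 151 CPM in control and 155 CPM in GC early erythroid progenitors and at 77.0 and 83.9 CPM in GMP, the higher level being in the erythroid class of both libraries. Atp5b followed this order, with 851 and 867 CPM in early erythroid progenitors and 532 and 582 CPM in GMP. Cox5a, a complex IV subunit without a second form, went the other way, with 402 and 458 CPM in early erythroid progenitors and 882 and 934 CPM in GMP. Mature trabecular neutrophils had 7.1 and 13.9 CPM of Ndufv1, 80.3 and 112 CPM of Atp5b and 109 and 145 CPM of Cox5a.

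Some members varied little between classes and others were found almost only in a few. Among members that reached 100 CPM in some class, the narrowest ranges in the control callus, from the lowest to the highest class on the log2 scale of CPM + 5, were 1.34 for Ndufa7, 1.6 for Ndufa3, 1.78 for Atp5mpl and for Atp5e, and 1.79 for Atp5l. The widest were 7.93 for Cox6a2, 5.57 for Cox4i2, 5.25 for Ndufa4l2, 4.73 for Atp5g3 and 4.70 for Sdhc. The first 3 of these wide ranges belong to alternative forms of a subunit, while Atp5g3 and Sdhc were highest in osteoclasts. The lowest level of Sdhc rested on 1 UMI, in the hemoglobin-rich erythroblasts. In control trabecular bone Atp5l, a membrane subunit of the ATP synthase, had a range of 1.83, and Cox6a2 of 8.33. Atp5g2 and Atp5g1 followed there with 7.12 and 6.18. Their lowest class was the hemoglobin-rich erythroblasts, with 2 and 7 UMIs, where hemoglobin took most UMIs.

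**Figure D2:**
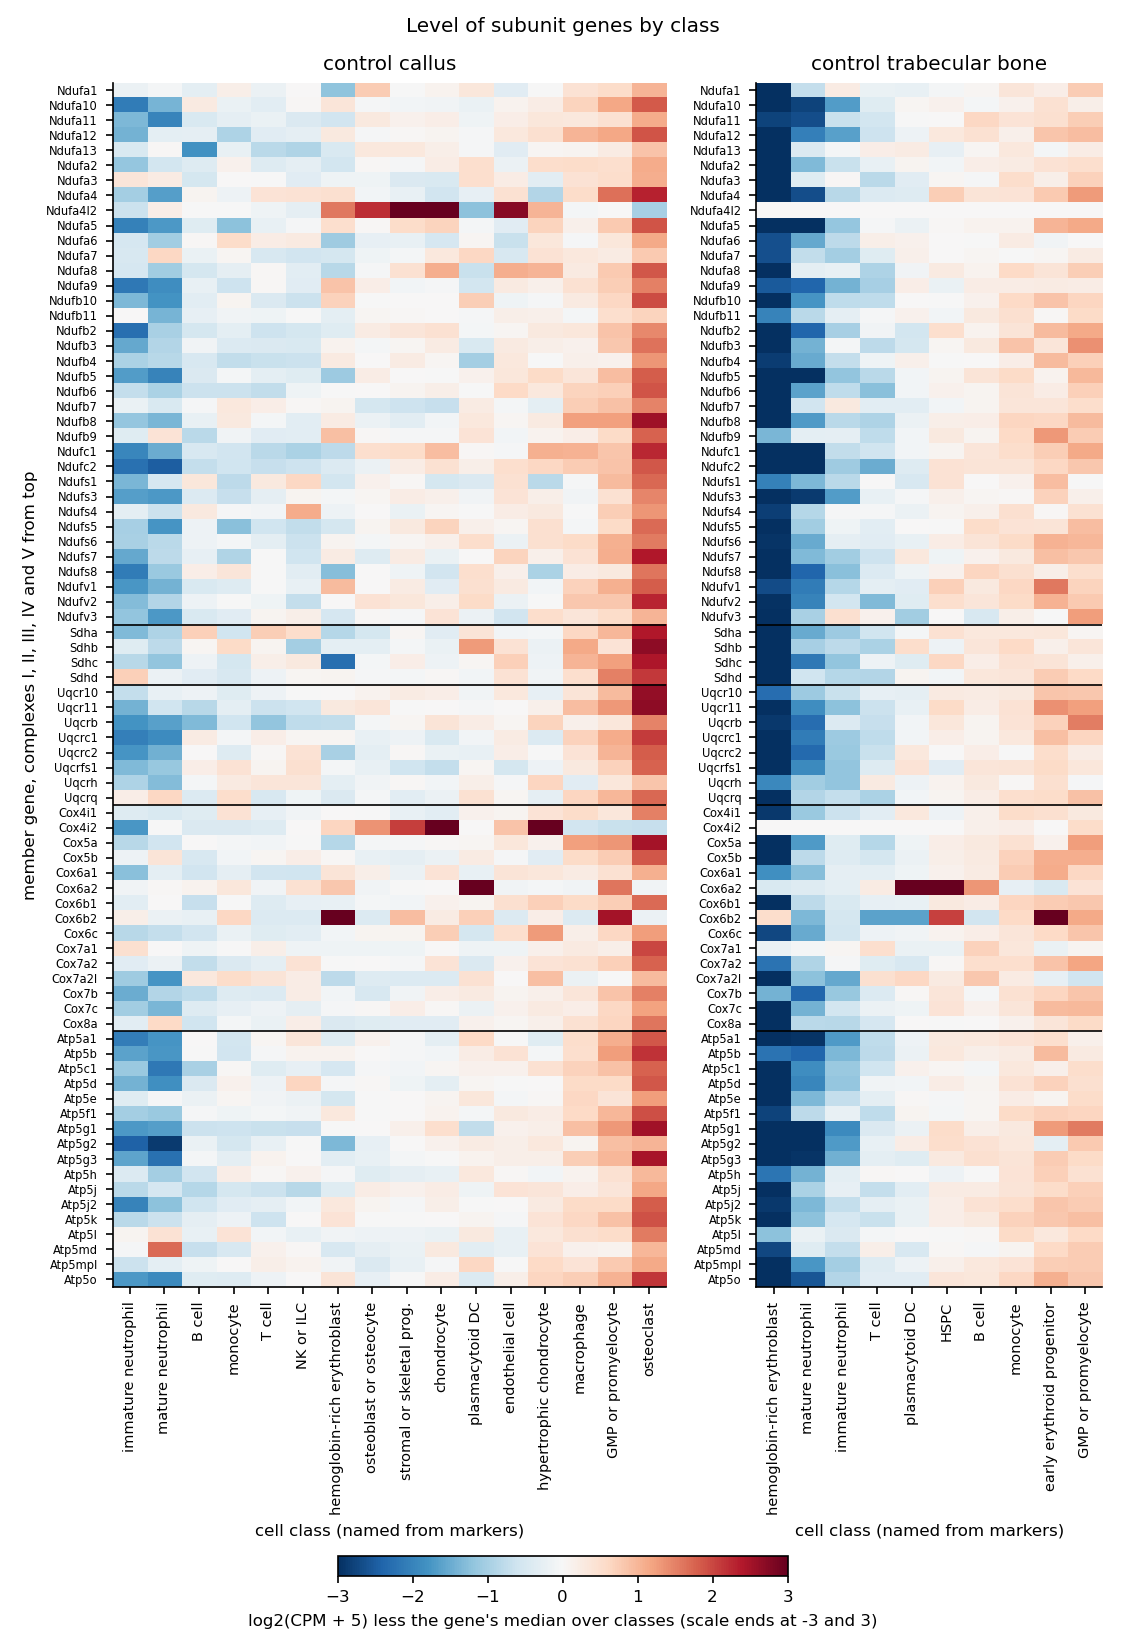
Level of members that reached 10 CPM in some class of the 2 control libraries, as log2(CPM + 5) less the gene's median over the classes of that library, with members in rows by complex (lines separate complexes I to V) and classes in columns ordered by the median of the members shown. The osteoclast column of callus is red for nearly all members, 75 of 84 being highest there, and Cox6a2, Cox4i2, Ndufa4l2 and Cox6b2 follow patterns of their own.

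For 8 subunit positions the mouse has more than 1 gene, and the split of UMIs between these genes differed between classes. Since capture differs between genes, the shares were compared across classes and not read as shares of protein. Cox6a2, the form of subunit VIa known from heart and skeletal muscle (GRCm38 chr7:128205435-128206387, minus strand), held most UMIs of its position in plasmacytoid dendritic cells. It was at 1218 CPM in the 37 plasmacytoid dendritic cells of the control callus and at 1606 CPM in the 32 of control trabecular bone. It held 91.5% (Clopper-Pearson, 87.0 to 94.8) and 90.8% (87.7 to 93.3) of the Cox6a1 and Cox6a2 UMIs in these cells. The GC libraries had under 30 such cells each. In trabecular hematopoietic stem or progenitor cells Cox6a2 was at 55.0 CPM in control and 16.9 CPM in GC, which was 22.2% (16.4 to 28.8) and 10.1% (5.86 to 15.8) of the position. Droplets without a cell held 7.77 CPM in control callus and 21.8 and 12.4 CPM in control and GC trabecular bone, and over all kept trabecular cells Cox6a2 was at 14.7 CPM in control and 3.19 CPM in GC.

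In callus Cox4i2 was highest in the chondrocyte and hypertrophic chondrocyte classes, and Ndufa4l2 in chondrocytes and stromal cells or skeletal progenitors. Cox4i2, the form of subunit IV known to respond to low oxygen (GRCm38 chr2:152754173-152765037, plus strand), was at 162 CPM in control and 155 CPM in GC chondrocytes and at 232 and 199 CPM in hypertrophic chondrocytes. It held 29.2% (28.7 to 29.7) and 33.4% (32.6 to 34.3) of the Cox4i1 and Cox4i2 UMIs in chondrocytes, and 26.2% (25.2 to 27.3) and 31.0% in hypertrophic chondrocytes. In stromal cells or skeletal progenitors of the callus it was at 65.6 CPM in control and 111 CPM in GC, a GC to control ratio of 1.69 (1.42 to 2.02). Over all kept cells Cox4i2 was at 136 and 120 CPM in callus and at 0.556 and 0.638 CPM in trabecular bone. In the 31 stromal cells of GC trabecular bone 0 of 96 UMIs of the position came from Cox4i2, which allows a share of up to 3.77%. Droplets without a cell in the control callus held 118 CPM of Cox4i2, more than any blood cell class of that library. This also exceeded its stromal cells or skeletal progenitors (65.6 CPM) and osteoblasts or osteocytes (37.7 CPM). The GC callus had no such droplet profile. The part of leaked RNA in the stromal ratios, here and for Ndufa4l2 below, was therefore not tested.

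Ndufa4l2, a relative of Ndufa4 also known as a target of the hypoxia-inducible factor (GRCm38 chr10:127514967-127517154, plus strand), was at 185 CPM in control and 163 CPM in GC chondrocytes. It held 46.9% (46.2 to 47.5) and 38.3% (37.4 to 39.2) of the Ndufa4 and Ndufa4l2 UMIs there. A chondrocyte cluster with Ndufa4l2 among its leading genes had 99 control and 16 GC cells. The part of the make-up of the class in this difference was not tested. Stromal cells or skeletal progenitors had 162 CPM of Ndufa4l2 in control and 268 CPM in GC, a ratio of 1.65 (1.48 to 1.84), and the share of the position was 37.8% and 51.9%. In hypertrophic chondrocytes Ndufa4l2 was much lower than in chondrocytes, at 18.9 and 43.2 CPM, although Cox4i2 was not. These classes were not cleanly separated, since the largest chondrocyte cluster was led by Col10a1, a hypertrophic marker. That cluster scored 3.945 for chondrocyte and 3.276 for hypertrophic chondrocyte markers. Hypertrophic chondrocytes had the highest Cox4i2 level of all callus classes and a Ndufa4l2 level below that of chondrocytes, stromal cells and osteoblasts or osteocytes. Over all kept cells Ndufa4l2 was at 136 and 113 CPM in callus and at 0.0585 and 0.319 CPM in trabecular bone, and droplets without a cell in control callus held 88.6 CPM.

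Cox6b2, the form of subunit VIb known from testis (GRCm38 chr7:4751792-4753094, minus strand), was highest in early erythroid progenitors, at 157 CPM in control and 130 CPM in GC trabecular bone. It held 20.6% (18.7 to 22.7) and 18.2% (15.9 to 20.7) of the Cox6b1 and Cox6b2 UMIs, against 4.39% and 3.52% in GMP. Hematopoietic stem or progenitor cells had 57.7 and 46.6 CPM of Cox6b2. Droplets without a cell held 15.6 and 16.2 CPM. Cox7a1, a further muscle form, was highest in control callus osteoclasts at 16.8 CPM and reached 15.8 CPM in those of GC callus, which was 1.61% (1.13 to 2.21) and 1.54% (1.05 to 2.16) of the Cox7a1 and Cox7a2 UMIs. Cox7b2, Cox8b and Cox8c stayed under 0.3 CPM over all kept cells of every library.

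Atp5g1, Atp5g2 and Atp5g3 encode the same mature subunit c, which forms the rotating ring of the ATP synthase, and differ in their import sequence and promoter, so that only their RNA can tell them apart. In control callus osteoclasts the UMIs of the position were split 31.4%, 30.4% and 38.1% over Atp5g1, Atp5g2 and Atp5g3, and in GC callus osteoclasts 29.3%, 30.3% and 40.4%. In chondrocytes most of these UMIs were from Atp5g2, with 24.7%, 53.3% and 21.9% in control and 23.0%, 55.9% and 21% in GC. In early erythroid progenitors of trabecular bone Atp5g1 had the largest part, with 43.3%, 29.7% and 27.0% in control and 42.7%, 30.3% and 27.0% in GC. GMP of trabecular bone had 37.7%, 45.3% and 17.1% in control and 36.9%, 45.3% and 17.8% in GC. Each of these classes kept its leading gene in both libraries of its tissue. Macrophages of the callus had 27.2%, 42.1% and 30.6% in control and 19.0%, 47.3% and 33.7% in GC.

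The promoters of these 3 genes carried different short motifs. The 200 bases before the start are given from RefSeq (GRCm38.p6), each on its gene's strand from 5′ to 3′, because the genes differ in where they are expressed while their product is the same. Capitals mark letters of the motifs searched on both strands: CCAAT in Atp5g1 and Atp5g3, CGCATGCG (the core known to bind NRF1) in Atp5g2, and TCAAGGTCA (known to bind ERRalpha), read on the other strand, in Atp5g3. Atp5g1 lay at chr11:96075632-96075831 (minus strand), Atp5g2 at chr15:102671048-102671247 (minus strand) and Atp5g3 at chr2:73911327-73911526 (minus strand).
Atp5g1: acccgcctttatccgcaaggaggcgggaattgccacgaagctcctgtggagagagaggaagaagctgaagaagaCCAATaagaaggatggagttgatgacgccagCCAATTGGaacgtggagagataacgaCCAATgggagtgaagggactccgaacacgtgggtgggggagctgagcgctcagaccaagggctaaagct
Atp5g2: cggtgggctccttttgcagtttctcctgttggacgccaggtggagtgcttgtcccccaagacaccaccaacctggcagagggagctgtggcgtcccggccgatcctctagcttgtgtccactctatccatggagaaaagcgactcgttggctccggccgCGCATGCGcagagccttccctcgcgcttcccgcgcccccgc
Atp5g3: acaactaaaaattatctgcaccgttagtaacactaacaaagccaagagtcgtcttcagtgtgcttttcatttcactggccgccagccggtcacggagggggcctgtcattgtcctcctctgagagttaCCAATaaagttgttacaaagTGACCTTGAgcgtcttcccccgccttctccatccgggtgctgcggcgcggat
In Atp5g1 the run of 8 capital letters holds CCAAT on either strand, overlapping, and the gene had 4 matches in all.

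Of the 84 members 67 were in the RefSeq promoter table, with 72 promoters from 250 bases before to 50 after the start. CGCATGCG stood in the promoters of 9 of the 67 members (13.4%), against 2.07% of all 27025 genes in the table. CCGGAAG, a core known to bind ETS factors and the GABP complex, stood in 17 (25.4%) against 9.93%. AAGATGGCG, known to bind YY1, stood in 7 (10.4%) against 1.64%, and TCAAGGTCA in 2 (2.99%) against 0.466%. CCAAT stood in 30 (44.8%) against 41.1% and TATAAA in 8 (11.9%) against 15.7%. The members' promoters had a median GC content of 57.3% and 19 CpG, against 52.7% and 7 over all promoters of the table. A match of letters is a description and not a site shown to be bound.

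**Figure D3:**
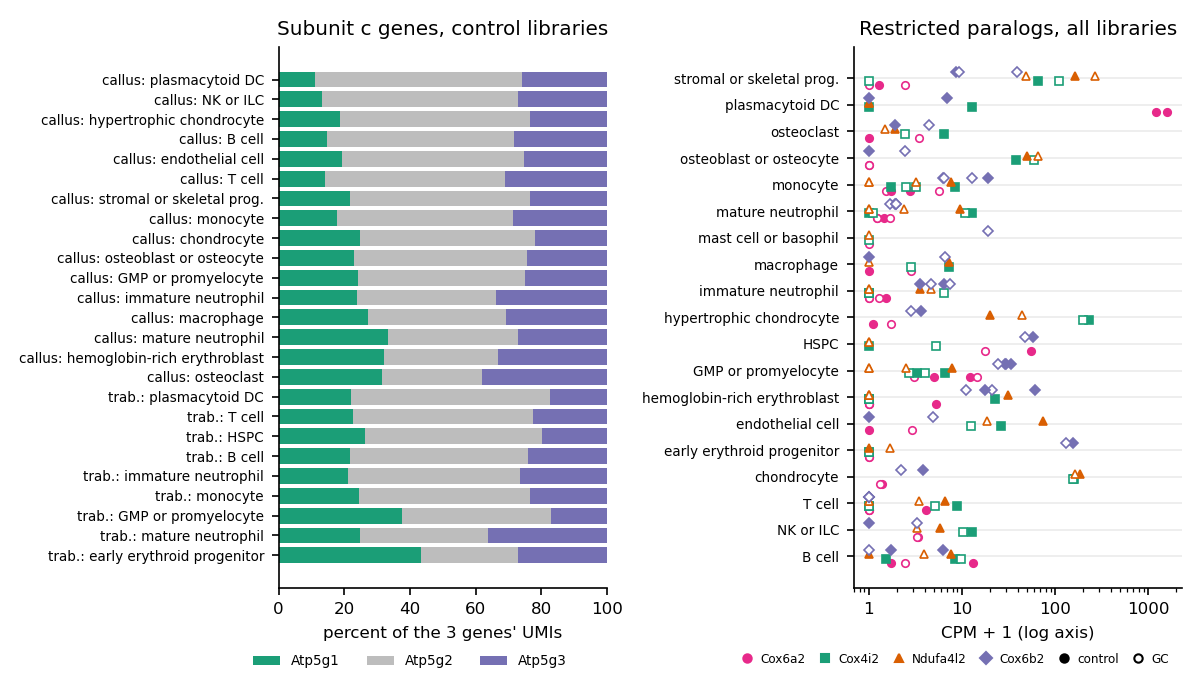
Left, percent of the UMIs of Atp5g1, Atp5g2 and Atp5g3 held by each gene (x axis) in the classes of the 2 control libraries (y axis). Right, CPM + 1 on a log axis of Cox6a2, Cox4i2, Ndufa4l2 and Cox6b2 by class, with 1 symbol per library, filled for control and open for GC. Cox6a2 exceeds 1000 CPM in the plasmacytoid dendritic cells alone.

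The second comparison was of GC with control in each class. It used the log2 ratio of CPM + 5 for genes of at least 50 UMIs over both libraries, and counted members below and above 0 and past 1.5-fold. Of the classes with at least 50 members measured, callus B cells had the lowest median. Their share of UMIs from the 84 genes was 1.02% in control and 0.848% in GC, a ratio of 0.834 (0.809 to 0.861). Of 73 members 59 were lower in GC, 21 of them past 1.5-fold, as were 20.2% of all genes measured in that direction. The median member was at −0.39 and the median gene at −0.18, with 64.8% of all genes lower, and after centring on the median gene 51 of 73 members were lower and 12 past 1.5-fold. The cells had a median of 1929 UMIs in control and 1697 in GC. Complex I led, with 30 of 34 members lower and 15 past 1.5-fold, while 11 of 13 mitochondrially encoded genes were higher. Ndufv3, an accessory subunit of complex I, was at 58.8 CPM in control and 23.6 CPM in GC (ratio 0.401, 0.218 to 0.692). Ndufb8 was at 96.8 and 44.2 CPM, Ndufb10 at 83.4 and 38.3 CPM and Ndufs5 at 86.4 and 41.2 CPM, all 3 being accessory subunits of complex I. Cox8a and Cox6a1 of complex IV were on the other side, at 296 and 367 CPM and at 88.6 and 111 CPM.

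Callus macrophages had a share of 1.73% (1.70 to 1.76, 83 cells) in control and 1.44% (1.41 to 1.48, 90 cells) in GC, a ratio of 0.835 (0.811 to 0.860). Of 71 members 56 were lower in GC and 17 were past 1.5-fold lower, against 8.93% of all genes measured. The median member was at −0.37 and the median gene at 0.06. The difference was uneven over the complexes, since 31 of 32 members of complex I were lower and 9 were past 1.5-fold, but 1 of 3 of complex II, 4 of 8 of complex III, 7 of 11 of complex IV and 13 of 17 of complex V were lower. Ndufa12, an accessory subunit of complex I, was at 118 CPM in control and 43.2 CPM in GC (ratio 0.365, 0.218 to 0.588). Ndufs7, a complex I core subunit with an iron-sulphur cluster, was at 74.2 and 31.9 CPM, and Uqcrc2, a core protein of complex III, at 86.8 and 37.5 CPM. Atp5d, the delta subunit of the ATP synthase, was at 325 and 158 CPM (ratio 0.485, 0.371 to 0.628). Sdha was at 93.1 and 129 CPM (ratio 1.39, 0.968 to 2.00), Uqcr11 at 305 and 375 CPM, Cox7c at 447 and 525 CPM and Cox6a1 at 159 and 188 CPM. Atp5b, the catalytic subunit of the same enzyme as Atp5d, was at 320 and 321 CPM. In these macrophages 62 of 76 cytosolic ribosomal protein genes were lower as well, and the median UMIs per cell were 6106 in control and 4990 in GC. With each member's median over the other callus classes taken off, 62 of 71 were still lower but 4 were past 1.5-fold, and with each library clustered alone 64 of 74 were lower and 28 past 1.5-fold.

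Callus monocytes had 1.21% in control and 1.17% in GC (ratio 0.962, 0.945 to 0.98), with 47 of 76 members lower, beside 45.6% of all genes. Of the members 11 were past 1.5-fold lower, against 9.75% of all genes measured. With the median over the other classes taken off 1 member was past 1.5-fold lower. In monocytes Ndufb10 was at 112 CPM in control and 56.4 CPM in GC, and Atp5md, of the ATP synthase, at 147 and 300 CPM. Callus mature neutrophils had 0.861% and 0.784% (ratio 0.910, 0.889 to 0.932), with 50 of 67 members lower, beside 49.6% of all genes. Of the members 12 were past 1.5-fold lower, against 13% of all genes measured. In these neutrophils Ndufa12 was at 44.3 CPM in control and 9.83 CPM in GC (94 and 14 UMIs) and Ndufs8, a further iron-sulphur subunit of complex I, at 19.8 and 56.9 CPM (ratio 2.87, 1.96 to 4.27). The GC neutrophils came almost wholly from 1 cluster (1170 of 1208 cells), from which 573 of 1569 control cells came. Within that cluster the share was 0.842% (0.822 to 0.863) in control and 0.780% (0.766 to 0.795) in GC, a difference of the same direction. With all clusters of the class weighted equally, 40 of 67 members were lower and 19 were past 1.5-fold.

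In the remaining callus classes with at least 50 members measured, the median member lay between −0.14 and 0.04. The share ratio of some, such as chondrocytes (1.08), differed more from equality than that of monocytes (0.962). In osteoclasts the share ratio was 1.03 (1.02 to 1.04), with 48 of 77 members lower, beside 46.1% of all genes. Of the members 5 were past 1.5-fold lower, against 5.33% of all genes measured, and 7 past 1.5-fold higher, against 5.4%. Within osteoclasts complex I had 27 of 36 members lower, complex III 5 of 8 higher, and the mitochondrially encoded genes 12 of 13 higher. Ndufs3, a core subunit of complex I, was at 168 CPM in control and 86.1 CPM in GC osteoclasts (ratio 0.512, 0.425 to 0.614), Ndufs7 at 302 and 170 CPM, Ndufb5 at 645 and 415 CPM and Cox4i1 at 1408 and 887 CPM (ratio 0.629, 0.594 to 0.667). Atp5md, a small subunit that helps to join ATP synthases in pairs, was at 420 and 732 CPM (ratio 1.75, 1.61 to 1.90), Atp5k, another membrane subunit of the ATP synthase, at 461 and 799 CPM, Cox6a1 at 285 and 490 CPM and Ndufa3 at 207 and 329 CPM. Members past 1.5-fold thus lay on both sides, as did other genes. With the median over the other classes taken off 34 of 76 were lower and 0 were past 1.5-fold either way.

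Chondrocytes had a share ratio of 1.08, and 44 of 79 members were lower, beside 51.9% of all genes. Of the members 0 were past 1.5-fold lower, against 2.49% of all genes measured, and 2 past 1.5-fold higher, against 1.38%. Those 2 were Atp5md, at 257 CPM in control and 414 CPM in GC, and Atp5k, at 121 and 188 CPM. The lowest were Ndufa12, at 58.6 and 39.2 CPM, and Ndufs3, at 65.3 and 44.2 CPM. The make-up of this class differed between the libraries, which had 1973 control and 1263 GC chondrocytes. A cluster led by Col10a1, a hypertrophic chondrocyte marker, and Ibsp gave 589 control and 716 GC cells. Another, led by Ucma and C1qtnf3, gave 725 and 198. With the 3 clusters of at least 30 cells in both libraries weighted equally, 36 of 79 members were lower and 43 higher. Stromal cells or skeletal progenitors had a ratio of 1.06 (1.05 to 1.08) with 46 of 79 members higher, beside 45.3% of all genes. The unnamed callus cells, many of them in a cluster led by collagen genes, had 0.912 (0.902 to 0.922). In them 52 of 78 members were lower, beside 42.4% of all genes. Hypertrophic chondrocytes had 0.987 with 50 of 78 lower, beside 52.8% of all genes. Osteoblasts or osteocytes had 0.939 with 51 of 78 lower, beside 43.0%. For T cells the ratio was 0.979, with 50 of 75 members lower beside 68.1% of all genes, and 26 of 75 after centring on the median gene. NK or innate lymphoid cells had 0.973, with 32 of 54 lower beside 56.4% of all genes. Endothelial cells had 37 of 71 members lower beside 47.5% of all genes, and GMP 38 of 76 beside 63.2%. In erythroblasts and immature neutrophils fewer than 50 members were measured, and their share ratios were 1.01 and 1.12 (1.07 to 1.17).

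**Figure D4:**
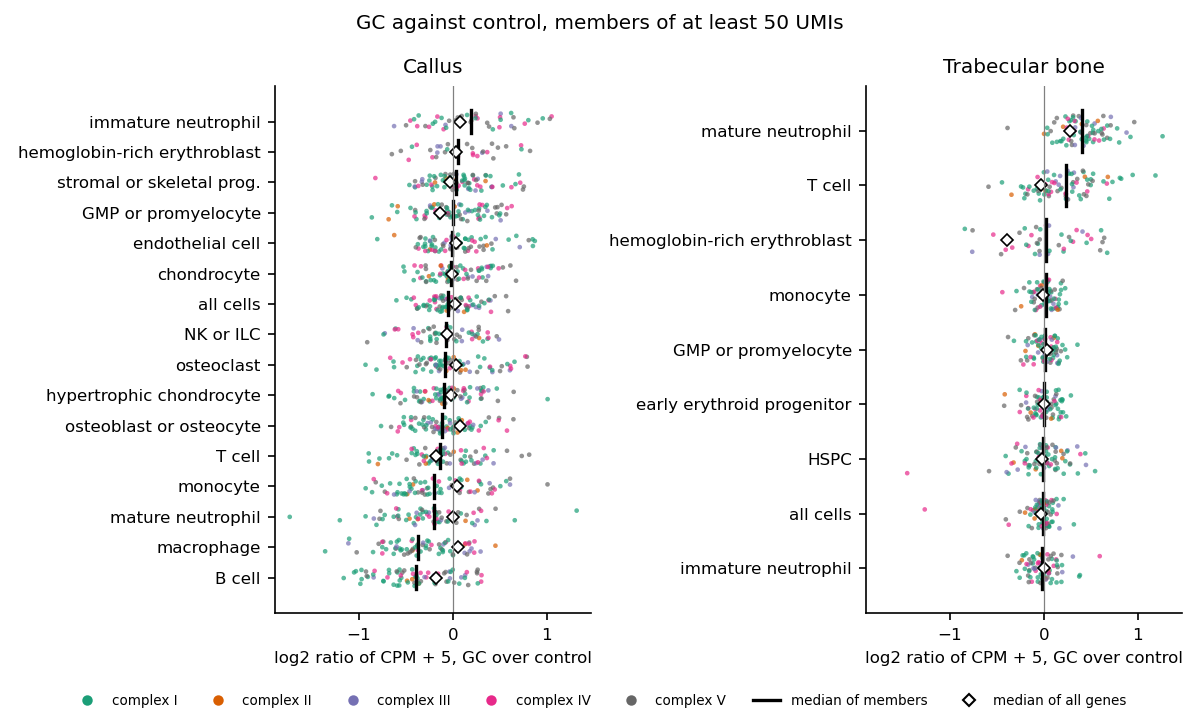
Log2 ratio of CPM + 5, GC over control (x axis), of each member of at least 50 UMIs in each class and over all kept cells (y axis), for callus on the left and trabecular bone on the right, with colours for the complexes, a bar for the median member and a diamond for the median of all genes measured. In callus the medians run down to −0.39 in B cells and −0.37 in macrophages, and in trabecular bone the mature neutrophils stand at 0.40.

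In trabecular bone most classes showed next to no difference. The share ratio was 0.994 in early erythroid progenitors, 1.0 in GMP, 1.01 in hematopoietic stem or progenitor cells and in monocytes, and 0.992 in immature neutrophils, and the median member lay between −0.02 and 0.02 in these 5 classes. Immature neutrophils of the 2 libraries lay partly in different clusters. There were 391 control and 36 GC cells in 1 cluster and 618 of the GC cells in another. With the 3 clusters of at least 30 cells in both libraries weighted equally, 56 of 77 members were higher in GC. The cluster with those 618 GC cells had 21 control cells and was left out of this. Mature neutrophils stood apart. Their share was 0.694% in control and 0.907% in GC, a ratio of 1.31 (1.29 to 1.32), and 75 of 76 members were higher, 18 past 1.5-fold, against 17.2% of all genes measured. All genes also leaned upward there, with 78.6% higher and a median of 0.28, beside 0.40 for the members, and after centring on the median gene 57 of 76 members were higher and 4 past 1.5-fold. Ndufb5 was at 18.2 CPM in control and 50.8 CPM in GC (ratio 2.79, 2.31 to 3.37), Ndufa8 at 90.3 and 176 CPM, and Uqcr10, a small complex III subunit, at 121 and 228 CPM. Atp5g2 was at 26.9 and 57.2 CPM, and Atp5md, the 1 member that was lower, at 186 and 141 CPM.

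The mature trabecular neutrophils of the 2 libraries lay in different clusters, and the difference was smaller within clusters. Control cells were in 2 clusters, of 894 and 746 cells, with shares of 0.709% (0.701 to 0.718) and 0.683% (0.676 to 0.691). The 30 and 98 GC cells in the same 2 clusters had 0.710% (0.666 to 0.756) and 0.748% (0.729 to 0.768). The 3 clusters that held nearly all GC cells (922, 648 and 306 cells) had 0.960%, 0.836% and 1.17%. With the 2 clusters of at least 30 cells in both libraries weighted equally, 48 of 76 members were higher and 1 was past 1.5-fold. That setting left out the 3 clusters that held nearly all GC cells. T cells of trabecular bone had 1.4% (50 cells) and 1.6% (163 cells), a ratio of 1.14 (1.10 to 1.17), with 60 of 76 members higher and 9 past 1.5-fold, against 11.9% of all genes measured. In them Ndufv2, a complex I core subunit, was at 34.4 and 84.8 CPM, on 11 UMIs in control, and Atp5md at 269 and 177 CPM.

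Read gene by gene instead of class by class, some members differed the same way in every class of a tissue. The classes of a tissue come from the same 2 libraries, so that such a pattern is 1 difference between 2 libraries seen many times and not repeated evidence. Of 73 members measured in at least 10 callus classes, Atp5e, Atp5md and Cox8a were higher in GC in every class. Atp5c1, Atp5d, Cox4i1, Cox7a2l, Ndufa12, Ndufs3, Ndufs7 and Uqcrc2 were lower in every class, and 62 had both signs. In trabecular bone, of 77 members measured in at least 6 classes, Atp5d, Cox4i1, Ndufb5, Ndufb9, Ndufs6 and Uqcrfs1 were among those higher in every class, Atp5md was lower in every class, and 69 had both signs. Of the 73 members with a median in both tissues 41 had a negative median in callus and a positive one in trabecular bone, 18 the reverse, 9 were positive in both and 5 negative in both. The same counts were not made over all genes, so these patterns cannot be called particular to the members.

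Atp5d (GRCm38 chr10:80138632-80145818, plus strand) was at 202 CPM in control and 154 CPM in GC over all kept callus cells, and at 203 and 218 CPM in trabecular bone. Its log2 ratio had a median of −0.49 over 15 callus classes (−1.02 to −0.15) and of 0.16 over 8 trabecular classes (0.03 to 0.62). Cox4i1 (GRCm38 chr8:120668222-120674207, plus strand) was at 463 and 351 CPM in callus and at 439 and 450 CPM in trabecular bone. Its median was −0.38 over callus classes (−0.70 to −0.06) and 0.08 over trabecular ones (0.02 to 0.40), and in callus monocytes it was at 663 and 407 CPM. Both genes were thus lower in the GC library of callus only.

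Atp5md (GRCm38 chr19:47083464-47090647, minus strand) showed the mirror image. It was at 260 CPM in control and 394 CPM in GC callus (ratio 1.51, 1.49 to 1.54), and at 223 and 168 CPM in trabecular bone (ratio 0.751, 0.726 to 0.776). The median was 0.48 over callus classes (0.00 to 1.01) and −0.38 over trabecular classes (−0.76 to −0.21). In callus monocytes Atp5md was at 147 and 300 CPM, and in callus mature neutrophils at 685 and 686 CPM. Cox8a, a complex IV subunit, was at 415 and 542 CPM in callus and 697 and 687 CPM in trabecular bone, and Atp5e, the epsilon subunit of the ATP synthase, at 366 and 454 CPM and at 497 and 459 CPM. In the unnamed callus cells Atp5e and Cox8a were on the other side, with log2 ratios of −0.20 and −0.18. Ndufs3 was at 64.8 and 41 CPM in callus and 46.0 and 49.6 CPM in trabecular bone, and Ndufs7 at 55.3 and 39.4 CPM and at 81.3 and 83.5 CPM.

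Promoters of some of the members with 1 direction in callus are given as the 200 bases before the start (RefSeq, GRCm38.p6, on the gene's strand). They show which letters stand in front of the 3 that were higher and of part of those that were lower. Capitals mark the searched motifs on either strand. The 3 genes higher in GC callus were Atp5md at chr19:47090648-47090847 (minus strand), Atp5e at chr2:174464102-174464301 (minus strand) and Cox8a at chr19:7217617-7217816 (minus strand), and each held CCAAT.
Atp5md: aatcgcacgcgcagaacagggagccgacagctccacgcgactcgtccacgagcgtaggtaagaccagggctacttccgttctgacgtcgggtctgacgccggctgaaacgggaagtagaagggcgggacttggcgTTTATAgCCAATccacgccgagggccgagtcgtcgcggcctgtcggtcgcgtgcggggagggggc
Atp5e: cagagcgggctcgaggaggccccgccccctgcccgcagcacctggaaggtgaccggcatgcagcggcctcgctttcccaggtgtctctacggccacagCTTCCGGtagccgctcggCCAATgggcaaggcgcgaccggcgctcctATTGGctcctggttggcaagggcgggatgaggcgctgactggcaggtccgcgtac
Cox8a: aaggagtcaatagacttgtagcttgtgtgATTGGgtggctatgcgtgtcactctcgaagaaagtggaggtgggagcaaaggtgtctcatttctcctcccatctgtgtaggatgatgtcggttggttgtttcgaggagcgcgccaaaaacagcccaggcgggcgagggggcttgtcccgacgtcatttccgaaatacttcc
Atp5md also held TATAAA and Atp5e CCGGAAG.

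Of the genes lower in GC callus, Atp5d at chr10:80142075-80142274 (plus strand, 1 of 2 promoters in the table) held none of the motifs in this window, Ndufs3 at chr2:90904722-90904921 (minus strand) held CCGGAAG and Ndufs7 at chr10:80249249-80249448 (plus strand) held TATAAA. None of the 3 held CCAAT in these 200 bases. They were 3 of the 8 genes lower in every callus class. In the longer window, from 250 bases before to 50 after the start, Atp5c1 of the 8 held CCAAT, and Cox7a2l and Ndufa12 did not. Cox4i1 and Uqcrc2 were not in the promoter table.
Atp5d: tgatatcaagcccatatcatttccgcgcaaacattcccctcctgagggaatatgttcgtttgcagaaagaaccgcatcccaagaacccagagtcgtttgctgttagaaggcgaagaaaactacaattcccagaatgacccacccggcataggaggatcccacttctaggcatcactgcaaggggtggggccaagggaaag
Ndufs3: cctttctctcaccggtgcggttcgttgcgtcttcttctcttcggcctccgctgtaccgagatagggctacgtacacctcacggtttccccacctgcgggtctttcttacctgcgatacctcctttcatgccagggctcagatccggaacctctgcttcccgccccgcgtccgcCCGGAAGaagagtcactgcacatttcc
Ndufs7: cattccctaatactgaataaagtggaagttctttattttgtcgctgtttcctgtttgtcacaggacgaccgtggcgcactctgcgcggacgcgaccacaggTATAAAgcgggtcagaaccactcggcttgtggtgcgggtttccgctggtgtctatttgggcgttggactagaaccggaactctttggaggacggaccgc
CCAAT stood in the promoters of 44.8% of the members, a share for the longer window and not for the 200 bases printed. With 3 genes shown on each side, and only part of the lower ones among them, this is a description of these genes alone.

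The members with 1 direction in callus also differed in length. The 3 that were higher had transcripts of 362 to 550 bases, and the 8 that were lower of 745 to 1179 bases, with a median of 965.5 (GENCODE M21, median over a gene's transcripts). Members had a median transcript of 648 bases in all, against 1961.5 over 21630 genes. The shorter members had a higher median log2 ratio than the longer ones in 14 of 15 callus classes, by 0.22 at the median class, and in 0 of 8 trabecular classes, where the difference was −0.10. The other genes were split at their own median, which over all kept callus cells was 2184 bases against 659 for the members. In that split the sign was the opposite. Shorter genes had a higher ratio in 1 of 15 callus classes (−0.10) and 8 of 8 trabecular classes (0.05). Over all kept callus cells, other genes of up to 600 bases had a median of 0.017 and those of 600 to 1000 bases −0.033. Those above 2000 bases had 0.051. The members of the first 2 lengths were at 0.158 and −0.12. In trabecular bone the same medians were −0.033, 0.0051 and −0.047 for other genes. The members there were at −0.051 and 0.012. Length thus moved with the members' ratios in opposite ways in the 2 tissues, and its part in the differences was not tested.

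**Figure D5:**
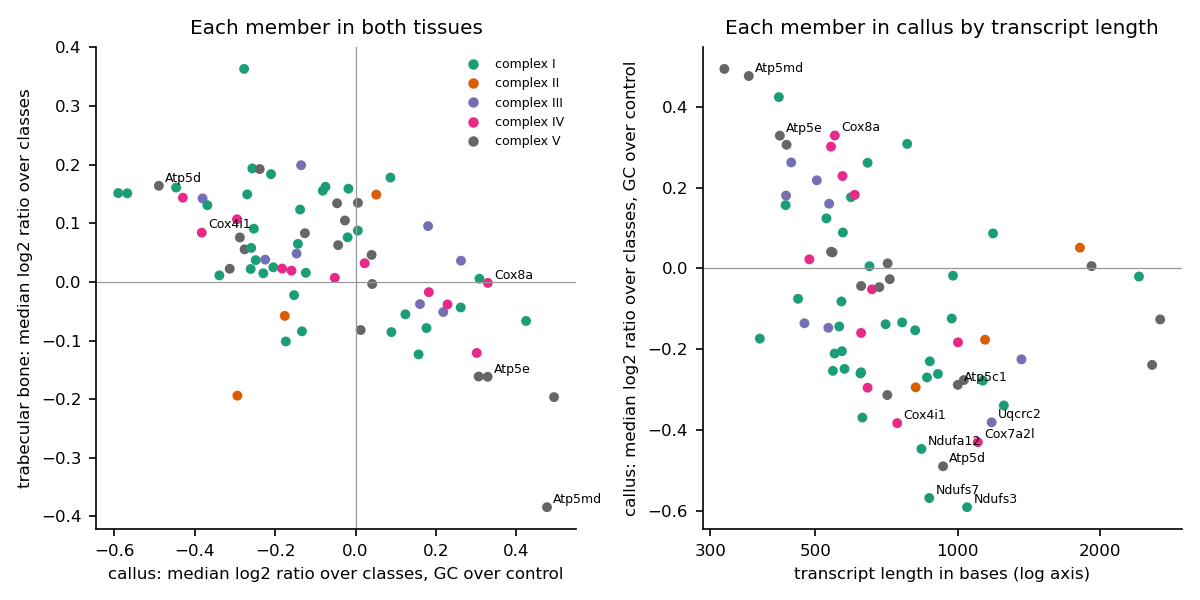
Left, log2 ratio of GC to control for each member, taken as the median over the callus classes (x axis) and over the trabecular classes (y axis), with colours for the complexes. Right, the callus median (y axis) against the gene's transcript length in bases on a log axis (x axis). Atp5md lies at 0.48 and −0.38 and Atp5d at −0.49 and 0.16 in the left panel, and the 3 labelled members above 0 in the right panel are shorter than the 8 below it.

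The third comparison set the same class of callus and trabecular bone side by side within 1 condition. The members were lower in callus in B cells, monocytes, GMP, immature neutrophils, T cells and plasmacytoid dendritic cells, in each condition with at least 50 members measured, and higher in erythroblasts rich in hemoglobin. In those erythroblasts the share was 1.14% in control and 1.15% in GC callus against 0.215% and 0.232% in trabecular bone (ratios 5.32 and 4.98), beside hemoglobin at 26.9% and 31.7% of UMIs in callus and 80.8% and 85.1% in trabecular bone. Of the UMIs outside the hemoglobin, immunoglobulin, mitochondrial and ribosomal protein genes the members took 1.90% and 2.08% in callus and 1.20% and 1.74% in trabecular bone. In control B cells the share was 2.10% in trabecular bone (2.08 to 2.12, 309 cells) and 1.02% in callus (625 cells), a ratio of 0.485 (0.475 to 0.494). Of 76 members 74 were lower in callus and 69 past 1.5-fold, against 25.3% of all genes measured. The median member was at −1.10 and the median gene at 0.07. Ndufa13, a complex I subunit, was at 228 CPM in trabecular and 46.9 CPM in callus B cells, Atp5c1, the gamma subunit at the shaft of the ATP synthase, at 310 and 67.0 CPM, Uqcrb at 175 and 43.9 CPM and Sdhd at 100 and 24.6 CPM. Sdha was at 99.3 and 99.8 CPM and Ndufs1 at 41 and 44.7 CPM. The trabecular B cells were of 3 clusters. That with leading genes Vpreb1 and Igll1, of B cell precursors, had a share of 2.49% (80 cells), a cluster led by Ebf1 and Vpreb3 had 1.64% (135 cells), and that led by the antigen presentation genes Cd74 and H2-Aa, which also led the callus B cells, had 1.27% (1.23 to 1.31, 94 cells), so that the ratio depends on the stage compared.

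In control monocytes the share was 2.40% (266 cells) in trabecular bone and 1.21% (482 cells) in callus (ratio 0.505, 0.498 to 0.512), with 75 of 77 members lower and 68 past 1.5-fold, against 40.4% of all genes measured. In GC monocytes the ratio was 0.483, with 75 of 77 lower and 66 past 1.5-fold, against 40.3%. Ndufa5, a complex I subunit, was at 108 CPM in control trabecular and 21.3 CPM in control callus monocytes, and at 123 and 22.7 CPM in GC. Atp5k was at 434 and 106 CPM in control and at 351 and 120 CPM in GC. Cox7a2l, which is known to help join complexes III and IV, was at 232 and 369 CPM in control and at 236 and 204 CPM in GC, so that its order differed between the conditions. Both trabecular monocyte clusters, with 2.16% and 2.59% in control, lay above the callus value.

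GMP had a callus to trabecular ratio of 0.717 (0.706 to 0.728) in control and 0.761 in GC, with 32 and 31 of 77 members past 1.5-fold lower, against 14.2% and 21.7% of all genes measured. Uqcrb, a complex III subunit, was at 488 CPM in trabecular and 150 CPM in callus GMP of the control, and at 433 and 170 CPM in GC. The callus GMP also had the basophil genes Cpa3 and Mcpt8 among their leading genes. Immature neutrophils had ratios of 0.648 and 0.733, with 50 and 41 of 77 members past 1.5-fold lower, against 27.4% and 21.1%. Ndufv3 was at 181 and 33.0 CPM in trabecular and callus immature neutrophils of the control, and at 175 and 68.8 CPM in GC. The callus class of this name scored higher for mature than for immature neutrophil markers. With each library clustered alone 11 of 79 members were lower in GC immature neutrophils and 2 past 1.5-fold, so that this class depended on how the cells were grouped. T cells had ratios of 0.821 and 0.708, with 20 of 71 and 42 of 76 members past 1.5-fold lower, against 13.1% and 21.7%. Sdha was higher in callus T cells, at 50 and 101 CPM in control and at 69.6 and 101 CPM in GC.

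Mature neutrophils had opposite orders in the 2 conditions. In control their share was higher in callus (ratio 1.24, 1.22 to 1.26), with 30 of 76 members lower and 13 past 1.5-fold lower, against 16.1% of all genes measured, and 18 past 1.5-fold higher, against 47.5%. The median gene was at 0.52, and after centring on it 22 of 76 members were higher and 26 past 1.5-fold lower. In GC it was lower (ratio 0.864), with 58 of 76 lower and 38 past 1.5-fold lower, against 26.2%. Atp5md was far higher in callus neutrophils in both conditions, at 186 and 685 CPM in control and at 141 and 686 CPM in GC. Ndufa8 was at 176 CPM in trabecular and 19.0 CPM in callus neutrophils of the GC libraries. The cells of both tissues differed in depth as well, with a median of 1279 and 1140 UMIs per mature neutrophil in control and GC callus and of 4975 and 3678 in trabecular bone, and the part of depth in these ratios was not tested. The B cell and monocyte medians were also lower in callus, at 1929 against 3463 and at 4719.5 against 12404.5 in control. Stromal cells, found in both tissues of the GC group only, had 46 of 78 members higher in callus (ratio 1.15), beside 56.7% of all genes.

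Other genes of the pathway were read beside the members as lists. The 13 mitochondrially encoded subunit genes had a median above 0 in GC in each of 15 callus classes (median class 0.28) and in 5 of 8 trabecular classes (0.09). Over all kept callus cells 10 of the 13 were higher, beside 8551 of all 15187 genes measured. mt-Atp8, a short gene that overlaps mt-Atp6, was at 60.0 CPM in control and 272 CPM in GC callus and at 64.7 and 38.9 CPM in trabecular bone, a pattern with the same signs as that of Atp5md. mt-Atp6 was at 3804 and 2883 CPM in callus and 3388 and 3386 CPM in trabecular bone. Among the nuclear members complex I had a median below 0 in 11 of 15 callus classes (median class −0.12) and complex IV in 10 (−0.052), but complexes III and V in 8 each (−0.015 and −0.049). The median gene was itself below 0 in some callus classes, such as B cells and T cells (both −0.18). In others, such as osteoblasts or osteocytes (0.08), it was above 0. The class counts here and below thus cannot be called particular to a list.

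The 47 assembly factors, which put the complexes together, had a median below 0 in 12 of 15 callus classes (−0.10) and 4 of 8 trabecular classes. Coa3, needed for complex IV, was at 30.1 CPM in control and 19.2 CPM in GC callus and at 69.1 and 78.3 CPM in trabecular bone, and Pet100, also of complex IV, at 44.9 and 70.8 CPM and at 146 and 123 CPM. The 13 electron carriers and exchange proteins had a median below 0 in 14 of 15 callus classes (−0.12) and 1 of 8 trabecular ones. Vdac2, a channel of the outer membrane, was at 150 and 120 CPM in callus and 236 and 267 CPM in trabecular bone, and Slc25a3, the phosphate carrier, at 346 and 423 CPM and at 399 and 421 CPM. The 16 genes of pyruvate dehydrogenase and the citric acid cycle had a median below 0 in 13 of 15 callus classes (−0.18) and 2 of 8 trabecular ones. Suclg1 was at 31.9 and 23.3 CPM in callus, and Pdhb at 52.3 and 63.1 CPM.

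Most glycolysis genes had a lower level in the GC callus library than in the control one. The 16 glycolysis genes had a median below 0 in 14 of 15 callus classes (−0.21) and 3 of 8 trabecular ones. Over all kept callus cells 14 of the 16 were lower, beside 43.7% of all genes. Slc2a1, the main glucose transporter, was at 427 CPM in control and 222 CPM in GC callus and at 36.8 and 32.9 CPM in trabecular bone. Levels given for a whole callus library pool its classes, and there were 1973 control and 1263 GC chondrocytes. The part of this mix in the differences was not tested. Aldoa was at 235 and 288 CPM in callus and at 410 and 447 CPM in trabecular bone. The 5 genes of uncoupling and oxygen defence had a median below 0 in 8 of 15 callus and 2 of 8 trabecular classes, with Sod2 at 111 and 91.6 CPM and Ucp2 at 47.8 and 56.6 CPM in callus. The 79 cytosolic ribosomal protein genes were below 0 in 10 of 15 callus classes (−0.05) and 0 of 8 trabecular classes (0.13).

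The 14 regulators had a median below 0 in 9 of 15 callus classes and 3 of the 7 trabecular classes with one measured. Ppargc1b, a coactivator known to drive mitochondrial genes in osteoclasts, was at 80.1 CPM in control and 83.7 CPM in GC callus osteoclasts, against 3.54 and 4.21 CPM over all kept callus cells. Its relative Ppargc1a was at 0.458 and 0.541 CPM over all callus cells and at 0.702 and 0.0797 CPM (24 and 3 UMIs) over all trabecular cells. Esrra, the gene of ERRalpha, was at 41.9 and 31.0 CPM in osteoclasts, Tfam, the packaging factor of mitochondrial DNA, at 30 and 39.4 CPM, and Gabpa at 28.2 and 37.4 CPM. Nrf1 was at 18.5 and 17.4 CPM over all callus cells and at 24.6 and 23.5 CPM over all trabecular cells. Hif1a, the oxygen-regulated factor, was at 828 and 832 CPM in chondrocytes and at 112 and 79.7 CPM in osteoclasts, the reverse of the order of the 84 genes in these classes. Higd1a, a target of that factor, was at 762 and 546 CPM over all callus cells, and Pprc1 at 11.6 and 16.8 CPM.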

How the data were processed

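Cells of fracture callus and trabecular bone were profiled by 10x single-cell RNA-seq, 1 library per tissue and treatment. The authors deposited raw UMI counts per gene and barcode. The submitters' processing notes name Cell Ranger 5.0.1, Seurat 3.2.0 and mm10, while the matrix headers name cellranger 4.0.0. The GC callus matrix lists 7762 barcodes, each of at least 500 UMIs, and the other 3 list 6794880 each.

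In those 3 libraries a cell was a barcode above 10% of the 99th percentile of the top 3000 barcodes, or one of at least 500 UMIs that differed from the profile of ranks 45001 to 90000 (10000 simulations, FDR 0.01). In the GC callus every listed barcode was taken. Cells with under 200 genes or over 10% mitochondrial UMIs were removed, as was a share of doublets scored against simulated ones (0.8% per 1000 cells). Each tissue's 2 libraries were clustered together (2000 variable genes, 30 principal components, 15 neighbours, Leiden resolution 1) without the 84 genes, the mitochondrial genes or the listed pathway genes. A class needed at least 3 markers 2-fold over the median of the other clusters and in 10% of cells. Classes were ranked by a score from the folds of their markers, and a cluster took the best. Where the 10 leading genes went against that class, the next with at least 80% of its score was taken, or no name. The naming rule was settled after the clusters were seen.

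Summed counts per class and library were compared as CPM with a pseudocount of 5 on the log2 scale, for genes of at least 50 UMIs and classes of at least 30 cells. Members were counted only where at least 50 of the 84 were measured. No test was possible with 1 library per group. Intervals are Poisson for shares, conditional binomial for ratios and Clopper-Pearson for paralogs, cover counting error only, and treat UMIs as independent molecules. Scripts used leidenalg 0.10.2, igraph 0.11.9, scikit-learn 1.9.0, pandas 2.3.3, scipy 1.17.1 and numpy 2.4.6 in Python 3.11.15, and were tested on simulated data. Many members have processed pseudogenes or near-copies in the genome, so reads shared with these are uncertain.

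The members, lists and markers were chosen with earlier results of these data known. Named in each comparison were the 4 highest and 4 lowest members or some of them. Also named were the 5 widest and narrowest across classes, a catalytic or regulatory subunit per complex, paralogs, set regulators and the extremes of each list. Cox5a, the members of 1 direction in every class and the genes followed across both tissues or conditions were named after their values were seen. Alternatives covered cell calling, filters, doublets, clustering, normalization, the pseudocount and the minimum count. Values of 1 member are not reported here.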

Additional observations from a re-analysis of the deposited data

Results flagged for a closer look

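Atp5d differed in opposite ways in the 2 tissues. Its log2 ratio of GC over control was negative in each of 15 callus classes, with a median of −0.49, and positive in each of 8 trabecular classes, with a median of 0.16. Cox4i1 had the same signs, with medians of −0.38 and 0.084, and Atp5md the opposite ones, with medians of 0.48 in callus and −0.38 in trabecular bone. The classes of a tissue share 2 libraries, and the difference between the tissues was not tested. How many other genes kept their direction in this way was not counted.

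The share of UMIs from the 84 genes in neutrophils also parted between the tissues. In immature neutrophils the ratio of GC over control was 1.12 in callus and 0.992 in trabecular bone, and in mature neutrophils it was 0.910 in callus and 1.31 in trabecular bone. Neither difference was tested, the mature cells of the 2 treatments came largely from different clusters in both tissues, and so did part of the immature cells in trabecular bone. Clusters of at least 30 cells in both libraries were also weighted equally. In trabecular immature neutrophils 56 of 77 members were then higher in GC, the same side as in callus. With each library clustered alone their median was 0.27. In callus immature neutrophils only 43 members were measured. The parting of the immature cells thus depended on how the cells were grouped.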

How the results depend on the processing

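Of 979 values under alternatives to 61 counts, 936 stayed within 1.5 times the value reported, 41 moved further and 2 went from a clear majority to the other direction, and 54 comparisons gave no value under an alternative. No paired analysis was possible because each group has 1 library, for which reason no replicate could be left out either. The cause of the moves below was not tested. Counts are of members, and GC over control in callus or trabecular bone unless both tissues are named.

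Centring on the median gene changed the direction in callus T cells (50 to 26 of 75 lower). It moved members past 1.5-fold lower from 21 to 12 of 73 in callus B cells, and past 1.5-fold higher from 18 to 4 of 76 in trabecular mature neutrophils. For callus over trabecular bone in control it moved those past 1.5-fold lower from 20 to 39 of 71 in T cells, from 32 to 51 of 77 in GMP and from 13 to 26 of 76 in mature neutrophils, where members higher went from 46 to 22 and past 1.5-fold higher from 18 to 3. Clustering each library alone changed the direction of callus over trabecular bone in GC immature neutrophils (67 of 77 to 11 of 79 lower, 41 to 2 past 1.5-fold). It also moved macrophages from 17 to 28 past 1.5-fold lower, trabecular immature neutrophils from 41 to 7 lower and trabecular monocytes from 44 to 16 higher.

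Trabecular immature neutrophils, at 41 of 77 lower, moved to 11 and 16 with Leiden resolutions of 0.5 and 2, to 18 with doublets kept and to 21 with clusters weighted equally. Callus endothelial cells, at 37 of 71 lower, moved to 21 of 68 with up to 20% mitochondrial UMIs, 23 of 69 with doublets kept and 24 of 69 with every barcode of at least 1000 UMIs. Doublets kept moved control T cells of callus over trabecular bone from 20 to 13 past 1.5-fold lower. Without hemoglobin, immunoglobulin, mitochondrial and ribosomal UMIs all trabecular cells moved from 42 to 20 of 79 lower. A pseudocount of 20 moved those past 1.5-fold lower from 17 to 11 in macrophages, 12 to 6 in callus mature neutrophils and 11 to 5 in monocytes, past 1.5-fold higher from 18 to 6 in trabecular mature neutrophils, and for control mature neutrophils of callus over trabecular bone from 18 to 11 higher and 13 to 8 lower. A minimum of 1 UMI moved NK cells from 32 of 54 to 50 of 80 lower and plasmacytoid dendritic cells of callus over trabecular bone from 39 of 52 to 59 of 79. The mean of per-cell CPM moved callus over trabecular bone past 1.5-fold lower from 23 to 15 of 81 in all GC cells, 18 to 9 in all control cells and 31 to 48 of 77 in GC GMP, and trabecular hematopoietic stem or progenitor cells from 39 to 22 of 78 lower.

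Both other settings were chosen after seeing the data. Weighting clusters equally used only those with at least 30 cells in both libraries. It left out the clusters with nearly all GC mature neutrophils of trabecular bone. With clusters weighted equally, members past 1.5-fold went from 12 to 19 lower in callus mature neutrophils and from 18 to 1 higher in trabecular ones, where members higher went from 75 to 48. Less each gene's median over the other classes, chondrocytes went from 44 to 12 of 78 lower, callus GMP from 38 to 22 and trabecular GMP from 44 to 19 higher, and those past 1.5-fold lower from 17 to 4 in macrophages, 12 to 7 in callus mature neutrophils and 11 to 1 in monocytes. The osteoclast share of all UMIs stayed between 3.85% and 4.38% in control and 3.74% and 4.24% in GC. This range leaves out the setting without hemoglobin, immunoglobulin, mitochondrial and ribosomal UMIs, which takes the share of fewer UMIs. Depth limits members of few UMIs, and 11 of the 84 were not measured in callus B cells.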
